A study of Mus musculus with 3 samples.

Results

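The genes described here make prostaglandin E2 and prostacyclin, sense prostaglandin E2 or break prostaglandins down, and were compared among 3 mouse colon carcinoma cell lines. The 9 genes were *Ptgs1*, *Ptgs2*, *Ptges* and *Ptgis* (synthesis), *Ptger1*, *Ptger2*, *Ptger3* and *Ptger4* (receptors) and *Hpgd* (breakdown). They were chosen by symbol, from the RefSeq accession that the array gives for each probe, out of 22911 genes named in this way, and 14 of the 56605 distinct probes on the array belonged to them. RNA of Colon26, a murine colon adenocarcinoma line, and of its sublines LuM1, labelled as high-metastatic, and NM11, labelled as low-metastatic, was labelled with Cy3 and hybridized to 1 single-colour array per line. All 3 lines carry the labels BALB/c and female, were kept in RPMI1640 with fetal bovine serum and antibiotics, received no treatment that differed between them, and were cultured for 3 days before total RNA was taken. Each line is thus 1 culture of 1 line with its own history, and no value below has a replicate check, so that no test was run.

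In this pathway a phospholipase A2 frees arachidonic acid from membranes, and the cyclooxygenases, *Ptgs1* (usually constitutive) and *Ptgs2* (usually inducible by growth factors and cytokines), turn it into prostaglandin H2. Terminal synthases then divide the flow, with *Ptges* leading to prostaglandin E2 and *Ptgis* to prostacyclin. Prostaglandin E2 acts through the G protein-coupled receptors EP1 to EP4 and is inactivated by 15-hydroxyprostaglandin dehydrogenase (*Hpgd*), and in colorectal tumors a high *Ptgs2* and a low *Hpgd* level are well known.

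Of the 9 genes, 3 were measured, that is well above background, on every array, namely *Ptgs1*, *Ptgs2* and *Ptges*. *Ptger4* was measured in LuM1 and NM11 cells, *Ptgis* in Colon26 cells, and *Ptger1*, *Ptger2*, *Ptger3* and *Hpgd* in none of the lines. Between lines, the brighter of 2 probes of the receptor *Ptger4* went from below background in Colon26 cells to 97.1 in LuM1 and 476.9 in NM11 cells. The other *Ptger4* probe was well above background in NM11 cells alone (47.8) and did not place LuM1 above Colon26 cells. *Ptgis* was well above background in Colon26 cells and in neither subline. LuM1 exceeded Colon26 cells by 4.12-fold and 4.36-fold on 2 of the 3 *Ptges* probes and by 1.26-fold on the other. *Ptgs2* was lowest in LuM1 cells, at 0.703 of Colon26 and 0.513 of NM11 cells.

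Values are background-subtracted spot intensities, scaled so that the 75th percentile of each array equals 585.1 (it had been 581.1, 625.1 and 551.5 on the Colon26, LuM1 and NM11 arrays). Where a spot was not significantly above background, the value stands at the scanner software's error for that spot. Such values are no measured intensities, and their order between lines has no meaning. The number after ± is the error that the scanner software gives for 1 spot, which leaves out the spread between cultures. A probe that the software did not call well above background has only a bound, so a difference is then given as at least so many fold, taken against the lowest well-measured signal of that array (26.4, 20.1 and 19.6 in that order) or the signal of the probe itself if higher. In bulk RNA, fewer cells of a type and less RNA per cell cannot be told apart. As a check of the labelled tissue, 12 markers of epithelium and colon were read. Of these, 3 were well above background in Colon26, 4 in LuM1 and 3 in NM11 cells, and *Cdh1*, *Krt18*, *Krt19*, *Vil1*, *Cdx1*, *Cdh17*, *Muc2* and *Lgr5* were so in none. The intestinal factor *Cdx2* read 443 ± 44.7, 231.7 ± 23.6 and 167.2 ± 17.3 in Colon26, LuM1 and NM11 cells. In the same order *Krt20* read 651.4 ± 65.4, 54.5 ± 7.03 and 157.3 ± 16.3, and *Krt8* read 28.9 ± 6.36, 107.6 ± 11.6 and 37.1 ± 5.59. *Epcam* was well above background in LuM1 cells alone (28.0 ± 5.18). Of 10 fibroblast markers, 8, 9 and 9 were well above background in the same order, but their levels differed, with *Col1a2* at 59896, 49.6 and 85275. At 2-fold, LuM1 over Colon26 cells had 3 of these markers higher and 2 lower of 9 detected (all genes 12.9% and 11.7%). LuM1 over NM11 cells had 3 and 3 of 9 (11.1% and 8.5%), and NM11 over Colon26 cells 3 and 1 of 9 (8.17% and 7.74%).

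The sequences before the RefSeq start sites of *Ptgs2*, *Ptges* and *Ptger4* are shown because the ratios of these 3 genes that were measured on both sides of a comparison include the largest among the members. They are from RefSeq, build GRCm38.p6, read 5′ to 3′ on the strand of the gene, and capitals mark the letter matches described after them. *Ptgs2* is given by chr1:150099781-150100030, plus strand, followed by the 30 bases after the start, chr1:150100031-150100060. *Ptges* is given by chr2:30903298-30903547 and *Ptger4* by chr15:5244188-5244437, both on the minus strand.
Ptgs2 before the start: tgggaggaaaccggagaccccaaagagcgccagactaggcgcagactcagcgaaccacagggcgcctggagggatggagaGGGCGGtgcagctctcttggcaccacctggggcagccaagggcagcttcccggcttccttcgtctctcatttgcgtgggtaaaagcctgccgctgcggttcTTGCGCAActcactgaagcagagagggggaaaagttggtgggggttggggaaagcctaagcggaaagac
Ptgs2 after the start: agagtcaccactaCGTCACGTGgagtccgc
Ptges before the start: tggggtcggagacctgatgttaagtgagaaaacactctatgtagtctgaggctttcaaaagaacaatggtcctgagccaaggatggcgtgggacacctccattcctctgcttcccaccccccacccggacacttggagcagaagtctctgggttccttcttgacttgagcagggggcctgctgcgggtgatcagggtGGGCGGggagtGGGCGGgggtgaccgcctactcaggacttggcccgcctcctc
Ptger4 before the start: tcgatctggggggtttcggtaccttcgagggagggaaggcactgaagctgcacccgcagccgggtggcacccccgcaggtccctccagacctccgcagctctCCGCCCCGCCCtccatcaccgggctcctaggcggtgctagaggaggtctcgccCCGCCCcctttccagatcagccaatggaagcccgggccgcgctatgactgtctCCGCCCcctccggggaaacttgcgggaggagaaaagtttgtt

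Of the 9 genes, 7 were in the promoter table, all but *Ptger1* and *Ptgis*. In these 250 bases, C and G made up 61.6% for *Ptgs2*, 59.6% for *Ptges* and 66.8% for *Ptger4*, against a median of 52.4% over 32851 promoters, and the CG pair occurred 13, 8 and 19 times, against a median of 6. Letter matches were searched on both strands in windows of 300 bases. The GC box GGGCGG, which Sp1 family factors bind, lay in 35.7% of all promoters. It began 170 bases before the *Ptgs2* start, 53 and 42 bases before the *Ptges* start, and, read on the other strand, 148, 143, 95 and 42 bases before the *Ptger4* start, the first pair of which overlap. The palindrome TTGCGCAA, a C/EBP motif, began 69 bases before the *Ptgs2* start and occurred in 0.183% of all promoters. After the *Ptgs2* start, CGTCA at base 14 (the other strand of TGACG, a shortened cAMP response element, in 20.8% of promoters) overlapped the E-box CACGTG at base 17 (in 7.15% of promoters). The letters TATAAA (13.6% of promoters), TGACGTCA (1.79%, which contains TGACG) and TGACTCA (5.20%) were in none of these 3 windows. A letter match is a description and the arrays do not read binding.

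**Figure D1:**
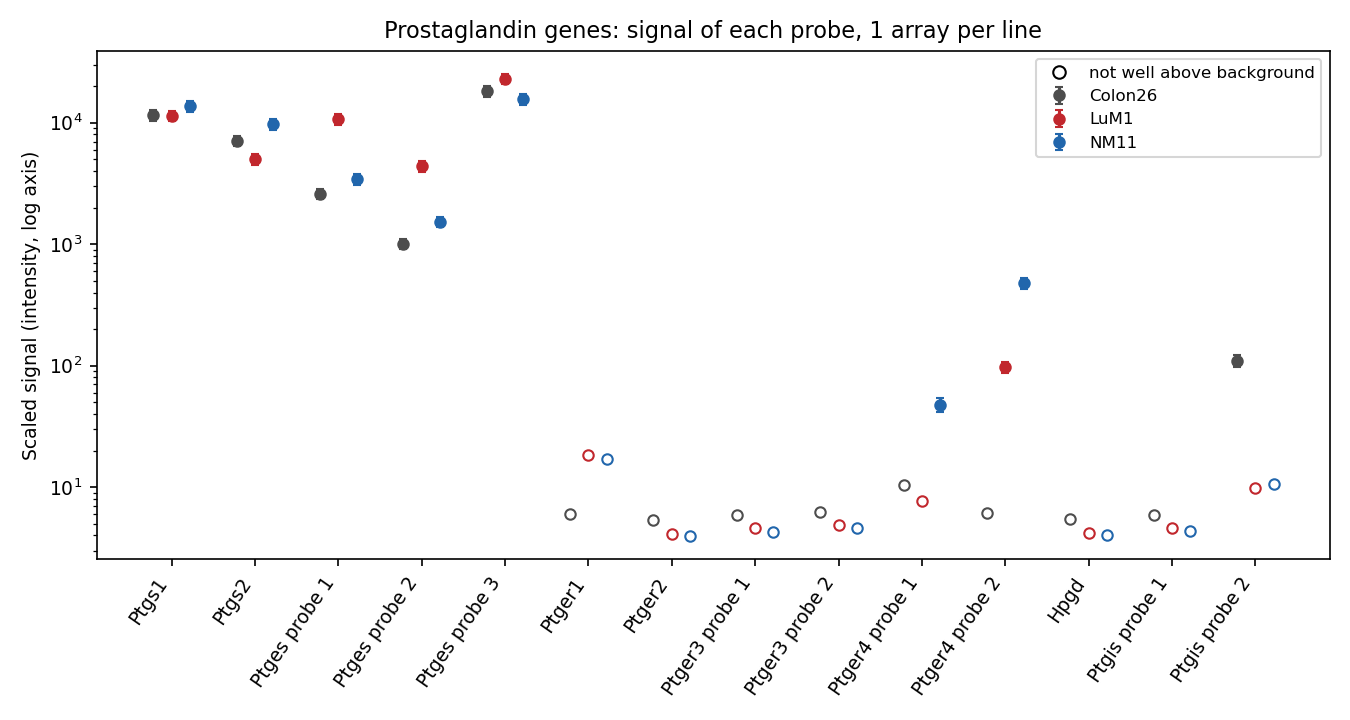
Scaled signal (intensity, log axis) of each of the 14 probes of the 9 genes on the Colon26, LuM1 and NM11 arrays, 1 array per line. Filled points were well above background and carry the scanner software's error as bars, and open points were not well above background. Open points that were not significantly above background stand at that error. *Ptgs1*, *Ptgs2* and the 3 *Ptges* probes lie above 1000 on every array, and the receptors and *Hpgd* lie at or near background except for *Ptger4*.

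Among the enzymes of the common first step, *Ptgs1* read 11552 ± 1155 in Colon26, 11389.8 ± 1139 in LuM1 and 13704 ± 1370.4 in NM11 cells (probe A_51_P279100, NM_008969). The lines were close to each other, with NM11 cells highest. The log2 ratio of LuM1 over Colon26 was −0.02, within the scanner error of 0.20 on that scale, and those of LuM1 over NM11 and of NM11 over Colon26 were −0.27 and 0.25, just beyond it. None of the 3 directions held under every scaling of the arrays, which placed the same ratios between −0.02 and 0.43, between −0.27 and 0.32, and between −0.24 and 0.28.

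*Ptgs2* read 7126 ± 713 in Colon26, 5012 ± 501.3 in LuM1 and 9765 ± 976 in NM11 cells (A_51_P254855, NM_011198). The high-metastatic subline was the lowest of the 3 lines and NM11 the highest. LuM1 cells had 0.703 of the Colon26 signal (log2 −0.51) and 0.513 of the NM11 signal (log2 −0.96), each beyond the scanner error of 0.20 and each short of 2-fold. LuM1 stayed the lowest line under every alternative tried, with log2 ratios between −0.51 and −0.06 against Colon26 and between −0.96 and −0.37 against NM11. NM11 cells were 1.37-fold higher than Colon26 cells (log2 0.45), a direction that was lost when the arrays were scaled to the reference gene *Hprt* (log2 −0.03).

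*Ptges*, the microsomal synthase that makes prostaglandin E2 and is often induced together with *Ptgs2*, had 3 probes for the same transcript, NM_022415. The brightest, A_55_P1974193, read 18159 ± 1816 in Colon26, 22951 ± 2295 in LuM1 and 15568 ± 1557 in NM11 cells. A_51_P312327 read 2598 ± 259.9, 10692 ± 1069 and 3435 ± 343.5, and A_55_P1974189 read 1007 ± 100.9, 4390 ± 439 and 1528 ± 152.8 in the same order. LuM1 cells were highest on every one of these probes, but by different amounts.

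LuM1 exceeded Colon26 cells by 4.12-fold on A_51_P312327 and 4.36-fold on A_55_P1974189 (log2 2.04 and 2.12), and by 1.26-fold on A_55_P1974193 (log2 0.34). Against NM11 cells the same 3 probes gave 3.11-fold, 2.87-fold and 1.47-fold (log2 1.64, 1.52 and 0.56). The difference between the probes was far larger than the scanner error of 0.20, and over all alternatives the first 2 probes stayed between 3.93-fold and 5.94-fold over Colon26 and the brightest between 1.26-fold and 1.72-fold. NM11 against Colon26 had no common direction, with log2 ratios of 0.40, 0.60 and −0.22. The stretch of transcript that each probe reads was not analysed here, and whether *Ptges* passes 2-fold depends on the probe and, over NM11, on the scaling as well, since the brightest probe ranged from 1.47-fold to 2.22-fold there, with the highest value after scaling to *Hprt*.

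**Figure D2:**
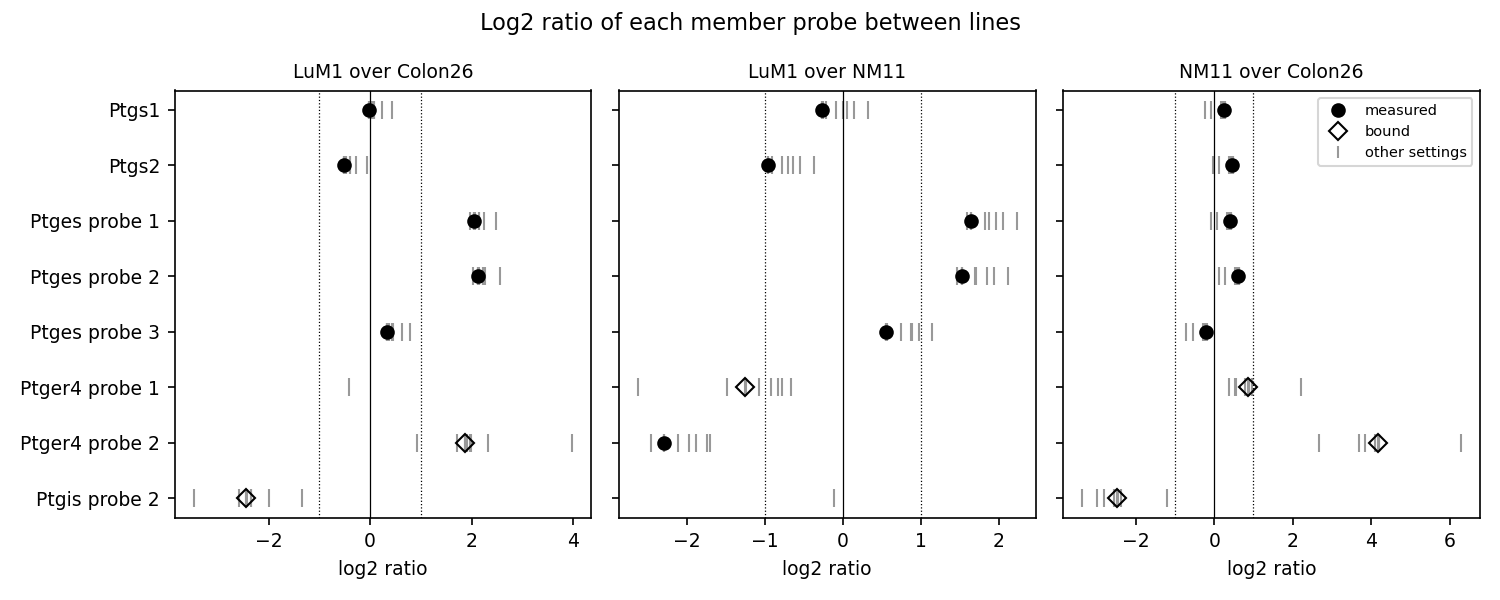
Log2 ratios of each member probe that had a ratio, in 3 comparisons of the lines (panels), with dotted lines at 2-fold. Filled circles are measured ratios, open diamonds are bounds and grey ticks are the same ratio under the other scalings, background correction and detection rules; *Ptges* probes 1 and 2 (A_51_P312327 and A_55_P1974189) sit beyond 2-fold in LuM1 over both other lines and probe 3 (A_55_P1974193) sits at 0.34 and 0.56.

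*Ptgis*, prostacyclin synthase, had 2 probes for NM_008968. A_55_P2154027 read 110.1 ± 12.3 in Colon26 cells and was not well above background in LuM1 (9.84) or NM11 cells (10.6). Colon26 cells were at least 5.47-fold above LuM1 and at least 5.62-fold above NM11 cells. The looser flag, for spots significantly above background, was set in both sublines, and taken at face value their signals were 0.0894 and 0.0965 of the Colon26 signal. With normexp background correction the bounds were weaker, at most 0.395 of the Colon26 signal in LuM1 and at most 0.430 in NM11 cells. The other probe, A_51_P372819, did not have the looser flag on any array, and its values (5.89, 4.60 and 4.34) are the scanner software's error. The difference thus rests on 1 dim probe. Spots well above background on the Colon26 array alone made up 1.89% of all spots, and around the *Ptgis* spot, within 5 rows and columns, they were 6 of 108 (5.56%). Whether its place on the array had a part in the value was not tested.

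Of the 4 receptors, *Ptger4* (EP4, which couples to Gs and raises cAMP) was the one that was measured. Its probe for NM_001136079 (A_55_P2747136) read 6.10, below background, in Colon26, 97.1 ± 10.8 in LuM1 and 476.9 ± 47.9 in NM11 cells. The 3 lines were well apart, with NM11 on top. NM11 cells were at least 18.1-fold and LuM1 cells at least 3.68-fold above Colon26 cells, and LuM1 had 0.204 of the NM11 signal (log2 −2.30 with a scanner error of 0.22), which is 4.91-fold lower. With normexp correction the bounds over Colon26 were 6.34-fold for NM11 and 1.89-fold for LuM1 cells, the latter short of 2-fold.

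The other *Ptger4* probe, for NM_008965 (A_51_P207988), was well above background in NM11 cells alone, at 47.8 ± 6.35, with 10.4 in Colon26 and 7.75 in LuM1 cells. It had the same line on top, NM11 being at least 1.81-fold above Colon26 and at least 2.38-fold above LuM1 cells but it did not place LuM1 above Colon26 cells. The looser flag was set for it on all 3 arrays, and at face value its log2 ratio of LuM1 over Colon26 was −0.42, opposite to the brighter probe. Around the brighter *Ptger4* spot, 19 of 110 spots (17.3%) were well above background on the Colon26 array alone, against 1.82% and 0.909% on the LuM1 and NM11 arrays alone, while that spot itself was below background on the Colon26 array. The part of these neighbours in the value was not tested.

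*Ptger1* (EP1, which raises calcium) was not well above background on any array, although the looser flag was set in LuM1 (18.4 ± 5.04) and NM11 cells (16.9 ± 4.74) and not in Colon26 cells (6.06). Around its spot, 18.4%, 11.4% and 0.877% of spots were well above background on the Colon26, LuM1 and NM11 arrays alone. The shares over all spots were 1.89%, 3.49% and 2.14%, and the part of these neighbours in the values was not tested. *Ptger2* (EP2, coupled to Gs like EP4) read 5.41, 4.12 and 3.94 in Colon26, LuM1 and NM11 cells, and *Ptger3* (EP3, coupled mainly to Gi) read between 4.29 and 6.28 over both of its probes and all arrays. Neither had the looser flag on any array. *Hpgd* read 5.43, 4.18 and 4.01 and did not have it either, so a fold between lines cannot be given for the breakdown enzyme or for these receptors. Signals without the looser flag stand at the scanner software's error and are no brightness. The spots themselves were as dark as the background around them, with brightness between −4.95 and 2.11 before scaling for *Ptger2*, *Ptger3*, *Hpgd* and the Colon26 spot of *Ptger1*. With 1 probe each for *Ptger1*, *Ptger2* and *Hpgd*, a level below the detection of that probe is what was seen.

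At a threshold of 2-fold, with the brightest probe standing for each gene and bounds included, LuM1 over Colon26 cells had 1 gene higher (*Ptger4*) and 1 lower (*Ptgis*) of the 5 detected in either line. Over all 14350 genes detected in either line, 12.9% were higher and 11.7% lower. LuM1 over NM11 cells had 0 higher and 1 lower (*Ptger4*) of 4, where 11.1% and 8.5% of 14412 genes were higher and lower. NM11 over Colon26 cells had 1 higher (*Ptger4*) and 1 lower (*Ptgis*) of 5, where the shares were 8.17% and 7.74% of 14107 genes. Counts of 0 or 1 of so few genes cannot be told from these shares. The comparisons share arrays, so the calls of *Ptger4* and *Ptgis* in 2 comparisons each are not separate observations. Over the members measured in both lines the median log2 ratio was −0.02 (3 genes) for LuM1 over Colon26, −0.61 (4 genes) for LuM1 over NM11 and 0.25 (3 genes) for NM11 over Colon26, and the medians over all measured genes were −0.13, −0.11 and −0.02.

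With the mean log2 ratio over the probes of a gene in place of the brightest probe, *Ptges* passed 2-fold in LuM1 cells over Colon26 (log2 1.501) and over NM11 cells (log2 1.24). By that rule the members had 2 higher and 1 lower in LuM1 over Colon26, 1 and 1 in LuM1 over NM11, and 1 and 1 in NM11 over Colon26, where 12.6% and 11.7%, 11% and 8.37%, and 8.01% and 7.89% of all genes were higher and lower. At 4-fold, with the brightest probe, the members had 0 higher and 1 lower (*Ptgis*), 0 and 1 (*Ptger4*), and 1 and 1 (*Ptger4* and *Ptgis*) in the same order, where 5.91% and 3.75%, 4.56% and 2.44%, and 3.32% and 2.79% of all genes were called. With the probe that is brightest on the Colon26 array, *Ptger4* was not called higher in either subline.

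For the genes measured on all arrays, the most alike patterns were taken as the smallest distances between the pairs of log2 ratios to Colon26, over 12244 genes and 3 lines. *Fosb*, an immediate early transcription factor, was nearest to *Ptgs2*, with log2 ratios of −0.52 in LuM1 and 0.45 in NM11 cells at a distance of 0.0077, followed by *Anapc16* and *Psmc5*. *Pacsin2*, 2310022A10Rik and *Pfdn2* were nearest to *Ptgs1*, and *Hexim2*, *Depdc5* and *Angptl2* to the brightest *Ptges* probe. Such likeness is common over 3 arrays, since 49 genes lay within 0.1 of *Ptgs2*, 205 of *Ptgs1* and 120 of *Ptges*.

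The rest of the eicosanoid pathway was read from lists of genes, by the same rule and threshold, so that the counts stand beside the shares of all genes given above (12.9% higher and 11.7% lower in LuM1 over Colon26, 11.1% and 8.5% in LuM1 over NM11, 8.17% and 7.74% in NM11 over Colon26). Because the lists were chosen with earlier results of these data known, a count above these shares is no test of a list. Of 21 phospholipases A2, which supply the arachidonic acid, 20 had a probe and 8 of these were measured in none of the lines. LuM1 over Colon26 cells had 2 higher and 2 lower, LuM1 over NM11 cells 3 higher and 2 lower, and NM11 over Colon26 cells 2 higher and 2 lower, of 11, 11 and 10 detected. The secreted enzyme *Pla2g2e* read 69.4 ± 9.17 in Colon26, 475.6 ± 47.8 in LuM1 and 418.8 ± 42.1 in NM11 cells, the sublines being 6.85-fold and 6.03-fold above Colon26. *Pla2g7*, which cleaves platelet-activating factor, read 5735 ± 574, 7736 ± 774 and 2136 ± 213.6, 3.62-fold higher in LuM1 than in NM11 cells, with its 3 probes between 1.73 and 1.86 in log2. *Pla2g2f* was measured in LuM1 cells alone (214.6 ± 21.8), *Pla2g4d* in NM11 cells alone (118.2 ± 12.6) and *Pla2g5* in Colon26 cells alone (97.7 ± 11.6). Around the *Pla2g2f* spot, 21.6% of spots were well above background on the LuM1 array alone, against 3.49% of all spots, and the part of this in the value was not tested. *Pla2g12a* had 0.447 of the Colon26 and 0.436 of the NM11 signal in LuM1 cells, and *Pla2g6* was 2.04-fold higher in LuM1 than in NM11 cells on its brighter probe and below 2-fold (log2 0.52) on the other.

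Of 8 other prostanoid synthases, 1 was higher and 1 lower in LuM1 than in Colon26 cells, 1 and 1 than in NM11 cells, and 0 and 1 in NM11 than in Colon26 cells. These counts were out of 6, 5 and 5 genes detected in either line. *Ptges3*, a cytosolic prostaglandin E synthase and Hsp90 co-chaperone, read 22761 ± 2276, 12929 ± 1293 and 28308 ± 2831 in Colon26, LuM1 and NM11 cells, so that LuM1 had 0.457 of the NM11 signal. This order of the lines was that of *Ptgs2* and not that of the *Ptges* probes. For prostaglandin D2, the lipocalin-type synthase *Ptgds* was measured in LuM1 cells alone (127 ± 13.5, at least 4.81-fold over Colon26) and the hematopoietic type *Hpgds* in Colon26 cells alone (360.3 ± 36.5, at least 17.9-fold over LuM1). Around the *Hpgds* spot, 19.6% of spots were well above background on the Colon26 array alone, and no mast cell marker of 5 was measured in any line; the part of the neighbouring spots was not tested. The thromboxane synthase *Tbxas1* was measured in none of the lines.

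Among 6 other prostanoid receptors and partners, the prostacyclin receptor *Ptgir* read 164.8 ± 17.6 in Colon26, 1384 ± 138.4 in LuM1 and 45.2 ± 6.35 in NM11 cells. LuM1 was 8.40-fold above Colon26 and 30.6-fold above NM11 cells, and thus high in a line in which *Ptgis* was not well above background. The share of neighbouring spots seen on the Colon26 array alone was 15.3% for *Ptgir*. *Ptgfr*, the receptor of prostaglandin F2 alpha, was measured in NM11 cells alone (226.9 ± 23.0), at least 8.59-fold above the Colon26 and at least 11.3-fold above the LuM1 level, *Ptgfrn*, its negative regulator, read 2698 ± 269.9 in Colon26, 1368 ± 136.9 in LuM1 and 910.8 ± 91.2 in NM11 cells, and the receptors *Ptgdr* and *Tbxa2r* were measured in none. By comparison the list had 1 higher and 0 lower, 1 and 1, and 1 and 2, in the order LuM1 over Colon26, LuM1 over NM11 and NM11 over Colon26. These counts were out of 3, 4 and 3 genes detected in either line.

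All 5 genes of prostaglandin transport and breakdown other than *Hpgd* were measured on every array. *Slco2a1*, the transporter that takes prostaglandins up into cells for breakdown, read 42.8 ± 7.08, 269 ± 27.2 and 32.4 ± 5.21 in Colon26, LuM1 and NM11 cells, 6.29-fold and 8.30-fold higher in LuM1 cells. *Ptgr1*, a reductase that acts after *Hpgd*, read 1065 ± 106.7, 2053 ± 205.4 and 3139.5 ± 314 and was 2.95-fold above Colon26 in NM11 cells. The other genes of this list stayed within 2-fold, so that LuM1 had 1 gene higher than either line and 0 lower.

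**Figure D3:**
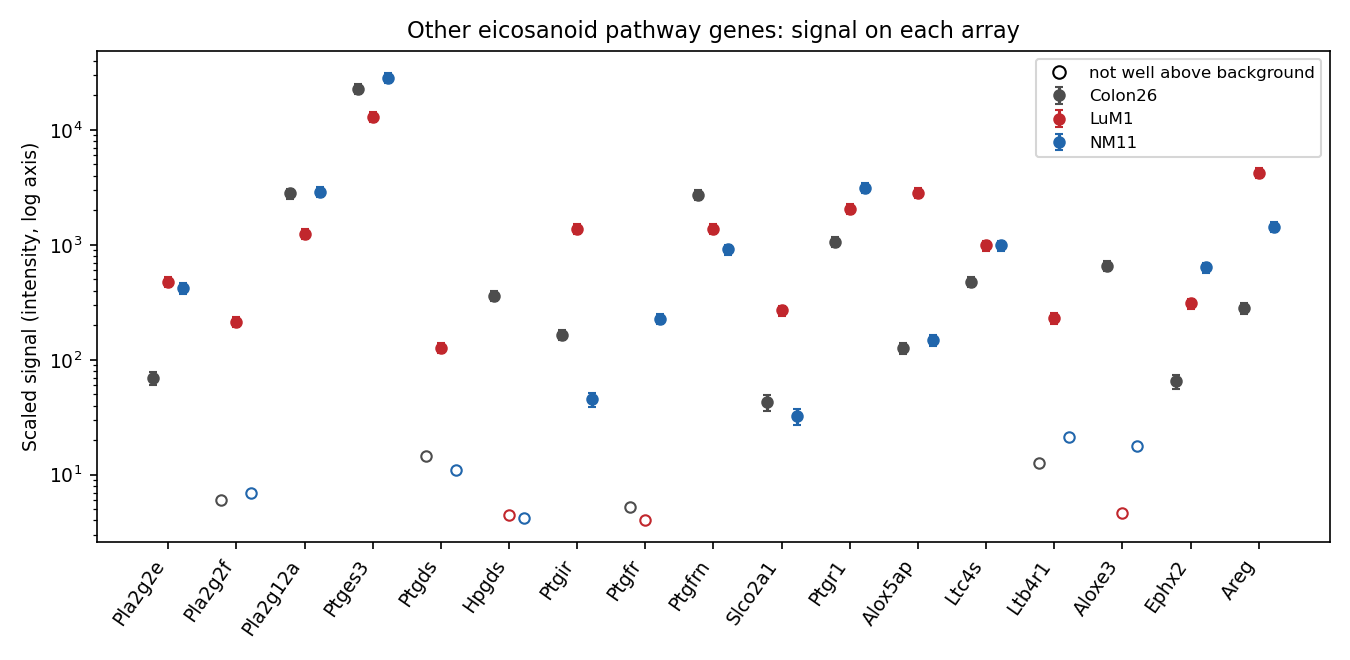
Scaled signal (intensity, log axis) of other eicosanoid pathway genes on the 3 arrays, 1 probe per gene; bars are the scanner software's error and open points were not well above background. *Ptgir*, *Slco2a1* and *Alox5ap* are highest in LuM1 cells, *Ptgfr* is seen in NM11 cells alone, and *Hpgds* and *Aloxe3* in Colon26 cells alone.

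In the lipoxygenase branch, which turns arachidonic acid into leukotrienes and related lipids, 4 of the 8 genes detected were higher and 1 lower in LuM1 than in Colon26 cells, beside 12.9% and 11.7% of all genes. *Alox5ap*, which presents arachidonic acid to 5-lipoxygenase, read 126.7 ± 13.8 in Colon26, 2833 ± 283.4 in LuM1 and 147.5 ± 15.3 in NM11 cells, 22.4-fold and 19.2-fold higher in LuM1 cells. The enzyme it serves, *Alox5*, was measured in none of the lines, and neither were the leukotriene receptors *Cysltr1* and *Cysltr2*. *Ltb4r1*, the receptor of leukotriene B4, was measured in LuM1 cells alone (229.3 ± 23.4). *Ltc4s* was 2.07-fold higher in both sublines than in Colon26 cells, and *Ephx2*, an epoxide hydrolase, read 65.1 ± 9.12, 308.6 ± 31.3 and 636.1 ± 63.8. *Aloxe3* was measured in Colon26 cells alone (656.8 ± 66.0, at least 32.6-fold over LuM1), with 27.4% of its neighbouring spots seen on that array alone, and *Alox12e* in NM11 cells alone (48.9 ± 7.15). LuM1 over NM11 cells had 2 genes higher and 2 lower of 9, and NM11 over Colon26 cells 2 and 1 of 8. As this list was chosen with earlier results of these data known, its counts are no test against all genes.

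Markers of myeloid cells, which are known to make and sense leukotrienes, were read beside them. Of 9 markers, 4 were well above background in Colon26, 6 in LuM1 and 4 in NM11 cells, with summed signals of 7034, 17156 and 6213. *Cd68* read 172.3 ± 18.1, 5251 ± 525.1 and 299.2 ± 30.2, *Lyz2* and *Aif1* were measured in LuM1 cells alone (112 ± 12.1 and 109.9 ± 12.0), and *Ptprc*, *Adgre1* and *Fcgr3* were not well above background on any array. *Cd14* read 1153 in Colon26, 4175 in LuM1 and 988 in NM11 cells, while *Csf1r* (682, 691 and 675) and *Itgam* (5027, 6818 and 4251) stayed within 2-fold. Thus 4 of the 9 markers were more than 2-fold higher in LuM1 than in either other line, as were *Alox5ap*, *Ptgir*, *Slco2a1* and 2 of the *Ptges* probes, and the part of such markers in those values was not tested.

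Downstream of the Gs-coupled receptors, 10 genes known to respond to cAMP were read. In LuM1 over Colon26 cells 5 were higher and 0 lower, in LuM1 over NM11 cells 3 and 0, and in NM11 over Colon26 cells 3 and 0, of 10 detected, beside 12.9% and 11.7%, 11.1% and 8.5%, and 8.17% and 7.74% of all genes. The growth factor gene *Areg* read 281.2 ± 28.6 in Colon26, 4227 ± 422.7 in LuM1 and 1441 ± 144.2 in NM11 cells, 15.0-fold and 5.13-fold over Colon26. The cAMP phosphodiesterases *Pde4b* and *Pde4d* were below background in Colon26 cells, with *Pde4b* at 201 ± 20.6 and 126.4 ± 13.3 and *Pde4d* at 116.5 ± 12.4 and 40.6 ± 5.65 in LuM1 and NM11 cells. All 5 *Pde4d* probes passed the detection rule in LuM1 cells, but 1 alone did in NM11 cells. *Areg*, *Pde4b* and *Pde4d* were thus higher in LuM1 than in NM11 cells. So were *Crem* (2.43-fold on its brightest probe), *Sik1* (1.83-fold), and, by little, *Pde4a* and *Nr4a1* (log2 0.09 and 0.03). The other genes of the list, *Nr4a2*, *Nr4a3* and *Per1*, were lower, with 793.7, 69.9 and 1043 in LuM1 and 920.9, 89.9 and 1459.9 in NM11 cells, each within 2-fold. Over the genes of the list measured in both lines (8, 10 and 8), the median log2 ratio was 0.62, 0.38 and 0.31 in the 3 comparisons. The medians over all measured genes were −0.13, −0.11 and −0.02. Since the list was chosen with earlier results of these data known, neither its counts nor its medians are a test against all genes. Of 20 G proteins, adenylyl cyclases and partners of the receptors, 1 was higher in LuM1 than in Colon26 cells, 2 higher than in NM11 cells, and 1 higher and 1 lower in NM11 than in Colon26 cells. These counts were out of 15, 15 and 13 genes detected in either line. The arrestin gene *Arrb1*, which uncouples receptors from G proteins, read 1878 ± 187.9, 2188 ± 218.8 and 377.7 ± 38.0, 5.79-fold higher in LuM1 than in NM11 cells.

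**Figure D4:**
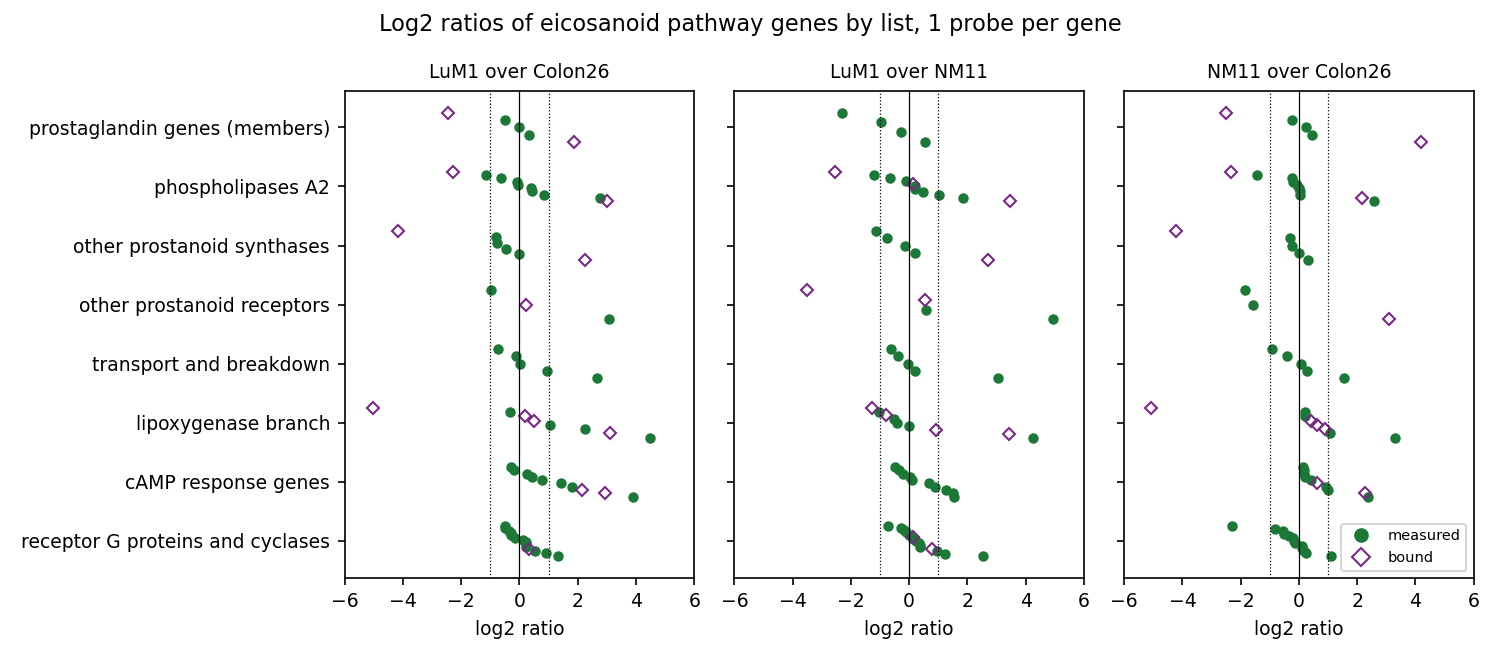
Log2 ratios of the members and of 7 lists of pathway genes in 3 comparisons of the lines (panels), 1 probe per gene, with dotted lines at 2-fold; filled points are measured ratios and open diamonds are bounds. The cAMP response genes have 5, 3 and 3 genes beyond 2-fold on the higher side and 0 on the lower side, and the members have at most 1 on either side. All lists were chosen with earlier results of these data known.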

How the data were processed

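Per the labels, total RNA (0.1 µg) of each line was labelled with Cy3. The intensity values that the authors deposited come from Agilent Feature Extraction 11.5.1.1, which subtracted background without scaling between arrays. The flags of each spot that the authors deposited (other values, 0 or 1) mark outliers and spots above background, by a looser and a stricter rule. The linear intensity values of the series table that the authors deposited equal the scanner signal times 1 factor per array (0.654, 0.829 and 0.706 for Colon26, LuM1 and NM11), and how the factors were chosen is not given in the sources used here.

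Control spots and outlier spots (137, 74 and 99) were left out, and signals were divided by the 75th percentile of all spots of the array other than controls. Of 56605 probes, 32994 (58.3%) were named through RefSeq accessions. For each gene, the brightest probe (mean of log2 over the 3 arrays) was used. With 1 array per line the precision is limited by the number of arrays, and the median SD over the 10 spots of a repeated probe was 0.035, 0.040 and 0.036 (log2). The members and gene lists were chosen with earlier results of these data known. Genes named were every member, every gene of the 5 eicosanoid lists that passed 2-fold in any comparison, and genes of the cAMP and G protein lists that passed 4-fold. The other cAMP genes were named to give both directions. The 3 genes nearest to each member measured on all arrays, and markers, were named as well. The ratios were checked on simulated data. Alternatives covered scaling, background correction (normexp, offset 50, planned on mean and run on median spot brightness), detection, probe choice, the threshold and, added after seeing the data, leaving out dense patches of spots seen on 1 array alone. Python 3.11.15 with numpy 2.4.6, pandas 2.3.3 and matplotlib 3.10.9, and R 4.3.3 with limma 3.58.1 were used.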

Additional observations from a re-analysis of the deposited data

How the results depend on the processing

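No paired analysis was possible because each line has 1 array and the labels give no replicate numbers. Counts of members at least 2-fold lower were 1 in each comparison and stayed at 1 under every alternative. The count higher in LuM1 than in Colon26 cells (1, *Ptger4*) became 0 with normexp correction, with the probe brightest on the Colon26 array and at 4-fold, and 2 with the flag for significant signals, with no filter on dim probes (both adding *Ptger1*) and with the mean over probes (adding *Ptges*). The count higher in LuM1 than in NM11 cells (0) became 1, *Ptges*, when scaled to *Hprt* and with the mean over probes. The count higher in NM11 than in Colon26 cells (1) became 2 with the flag for significant signals and with no filter (adding *Ptger1*), and 0 with the probe brightest on the Colon26 array. The added *Ptger1* calls rest on a Colon26 value that stands at the scanner software's error and is no measured intensity. Among single ratios of members, 113 values moved by less than a set tolerance, 54 by more, and no ratio past 2-fold changed sign. This tolerance was the scanner error for measured ratios and a fixed value for bounds. The sign changed for *Ptgs1* as given above, for *Ptgs2* in NM11 over Colon26 (scaled to *Hprt*) and for *Ptges* in NM11 over Colon26 (mean over probes, log2 0.26). Scaling moved the median of all measured genes in LuM1 over Colon26 by up to 0.45 (the authors' values), in LuM1 over NM11 by up to 0.59 and in NM11 over Colon26 by −0.49 (both *Hprt*). Leaving out dense patches (467, 110 and 70 spots on the Colon26, LuM1 and NM11 arrays) removed no spot of a member that was used, so it says nothing about their values. The counts of the pathway lists were made with such spots kept, among them those of *Hpgds*, *Aloxe3*, *Alox12e* and *Pla2g2f*. Whether the dim signals of *Ptgis*, *Ptger1* and *Ptger4* would recur in another culture cannot be read from 1 array per line.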
